A study of Mus musculus with 2 samples.

Results

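Mir7-1, Mir7-2, Mir7b, Mir129-1, Mir129-2, Mir132, Mir212 and Mir488 encode miRNAs of the miR-7, miR-129, miR-132 and miR-488 families, which are known from neurons. They were picked by name through their Ensembl identifiers, and 8 of 8 were found among the 1973 miRNA genes of the count tables. MicroRNA sequencing had been run on total RNA of neural tube, the tissue that forms brain and spinal cord, from mouse embryos of strain B6NCrl at embryonic day 14.5. The only group held 2 libraries: the dams of the embryos differed, with dam 1 for replicate 1 and dam 2 for replicate 2. The labels name 1 neural tube per sample and also give the sex as pooled, a contradiction that was not settled. There was no second age, tissue or treatment, so the measurements bear on the level of each gene in this tissue and on the difference between the libraries.

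A miRNA gene is transcribed as a longer RNA that is cut to a hairpin and then to a mature RNA of either hairpin arm (5p or 3p), which represses mRNAs that pair with its seed, bases 2 to 8. miR-7 is known from the brain and from endocrine cells, and the circular RNA Cdr1as carries many sites for it. miR-129 is known in rodent neurons as a repressor of the potassium channel Kv1.1. miR-132 and miR-212 come from 1 primary transcript that the activity-dependent factor CREB induces, and miR-132 is known for promoting dendrite growth. miR-488 lies within Astn1, the gene of astrotactin, which acts in the migration of young neurons along glia.

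All 8 genes had a hairpin in the RefSeq miRNA table (GRCm38.p6, the build also called mm10). The mature miRNAs are shown because seed and sequence decide which genes can be told apart by their reads. Capitals mark the seed.
mmu-miR-7a-5p: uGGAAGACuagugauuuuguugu
mmu-miR-7b-5p: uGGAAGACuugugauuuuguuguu
mmu-miR-7a-1-3p: cAACAAAUcacagucugccaua
mmu-miR-7a-2-3p: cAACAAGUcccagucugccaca
mmu-miR-7b-3p: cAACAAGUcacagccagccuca
mmu-miR-129-5p: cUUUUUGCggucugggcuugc
mmu-miR-129-2-3p: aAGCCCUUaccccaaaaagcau
mmu-miR-132-3p: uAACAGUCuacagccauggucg
mmu-miR-212-3p: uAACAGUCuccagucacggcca
mmu-miR-488-3p: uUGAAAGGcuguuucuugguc
Within the table, miR-7a-5p and miR-7b-5p shared their seed only with each other, as did miR-7a-2-3p with miR-7b-3p and miR-132-3p with miR-212-3p. The seeds of the other mature miRNAs listed for these genes were found in no other entry. The table held no 3p entry for Mir129-1, so that arm was not compared. The hairpin of Mir129-1 does hold the seed bases of miR-129-2-3p. Over the first 23 bases miR-7a-5p and miR-7b-5p differed at 1 base (A10U, counted from 1 at the 5′ end of miR-7a-5p). Over 22 bases miR-132-3p and miR-212-3p differed at 5, none of them in the seed.

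The mature miR-7a-5p is encoded by both Mir7-1 and Mir7-2, and miR-129-5p by both Mir129-1 and Mir129-2. The hairpins of these copies are shown with the longest stretch that each pair shares in capitals.
Mir7-1: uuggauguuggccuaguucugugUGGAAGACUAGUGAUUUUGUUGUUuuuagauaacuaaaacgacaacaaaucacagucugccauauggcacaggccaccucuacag
Mir7-2: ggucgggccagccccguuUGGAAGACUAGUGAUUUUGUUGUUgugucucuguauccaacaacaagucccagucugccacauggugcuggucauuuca
Mir129-1: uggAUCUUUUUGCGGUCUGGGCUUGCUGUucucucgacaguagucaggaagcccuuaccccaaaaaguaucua
Mir129-2: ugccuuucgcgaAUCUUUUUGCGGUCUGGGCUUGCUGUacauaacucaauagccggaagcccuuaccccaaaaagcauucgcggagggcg
The shared stretch ran over 24 bases in the miR-7 copies and 26 bases in the miR-129 copies, and in both it covered the whole 5p miRNA. A read of exactly miR-7a-5p or miR-129-5p therefore had 2 positions, and the deposited tables count such reads for no gene. The 3p arms of Mir7-1 and Mir7-2 differed at 3 bases. The miR-129 copies shared a second stretch, of 21 bases, over most of the 3p arm. Mir7b, Mir132, Mir212 and Mir488 shared no window of 20 bases with any of the other hairpins in the table, which held 1005. Counts of Mir7-1, Mir7-2, Mir129-1 and Mir129-2 thus leave out reads that their own mature 5p miRNA could give, and their levels relative to the other genes are uncertain. The tables do not separate the arms of a hairpin.

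**Figure D1:**
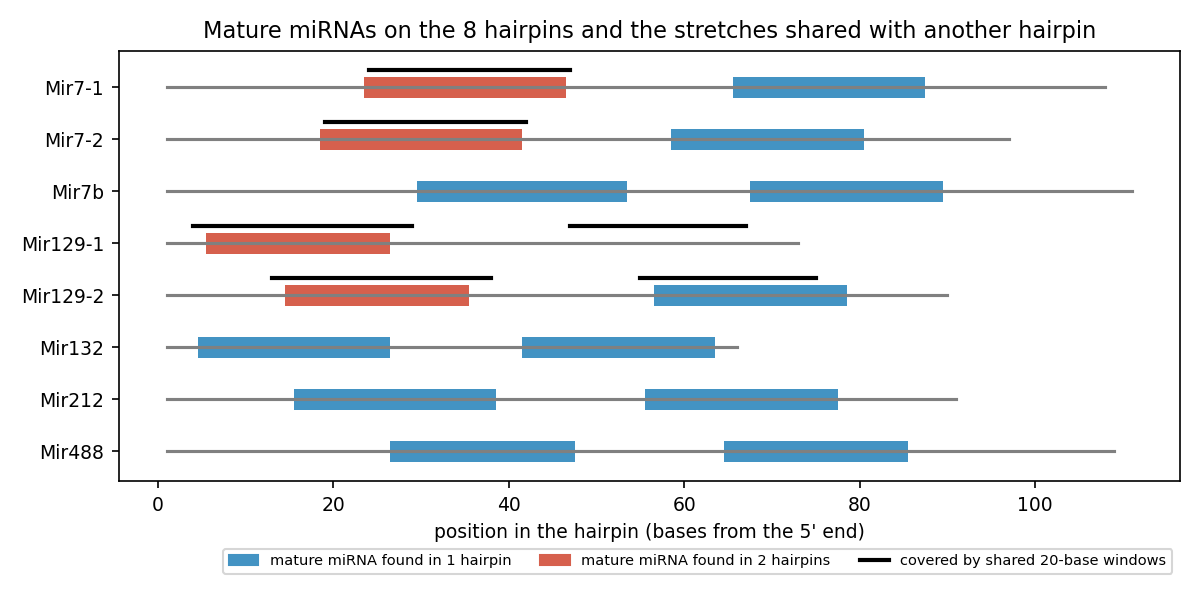
Positions of the mature miRNAs (boxes) along the 8 hairpins in bases from the 5′ end, with black lines over stretches covered by 20-base windows that also occur in another hairpin of the RefSeq table. The 5p miRNAs of Mir7-1, Mir7-2, Mir129-1 and Mir129-2 are red because they occur in 2 hairpins, and Mir7b, Mir132, Mir212 and Mir488 have no shared stretch.

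The libraries held 3172235 and 3671915 sense-strand counts on miRNA genes, in replicates 1 and 2. Levels are counts per 1000000 of these (CPM), as mean ± SD over both libraries (n = 2). Each read is a small RNA and not a fragment of a long one, so levels were not divided by gene length. A count of 0 allowed up to 0.946 and 0.817 CPM. Reads at several positions made up 32.4% and 33.3% of all reads and entered no gene's count. No molecular identifiers are stated, so all intervals and limits here cover counting error only. The neuronal miRNA gene Mir137, used as a marker of the labelled tissue, stood at 9594 and 9321 CPM. It was the highest of 13 neuronal genes taken for comparison. Others of these were far lower, with Mir124a-1, Mir124a-2, Mir124a-3 and Mir9-2 at means of 6.44, 2.40, 1.78 and 1.33 CPM. These levels, that of Mir137 included, count reads at single positions only, so they do not give the full level of a mature miRNA. The part of reads at several positions in this order was not tested. In bulk tissue fewer cells of a type and less RNA per cell cannot be told apart.

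Together the 8 genes took 0.243% of the counts in replicate 1 and 0.203% in replicate 2 (mean 0.223% ± 0.0283, SD, n = 2). Their median level was 216 CPM, against 122 CPM over the 360 genes with at least 10 counts in a library. By mean level they ranked from 95th to 228th among the 678 genes with any count. All 8 had more than 100 counts in each library, so none was near the detection limit.

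Mir132 was the highest of the 8. Its 66-base hairpin lies on chromosome 11 (chr11:75173682-75173747, plus strand) in an intron of the noncoding transcript 1700016P03Rik. It had 2830 counts (892 CPM) in replicate 1 and 2275 counts (620 CPM) in replicate 2, or 756 ± 193 CPM. Mir212 lies 203 bases upstream in the same intron (chr11:75173388-75173478). It was the lowest of the 8, with 151 counts (47.6 CPM) and 194 counts (52.8 CPM), or 50.2 ± 3.70 CPM. The levels of these neighbours were far apart in both libraries, with 18.7 reads of Mir132 per read of Mir212 in replicate 1 (exact 95% interval 15.9 to 22.2) and 11.7 in replicate 2 (10.1 to 13.6).

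The miR-7 genes lay between. Mir7b, on chromosome 17 with no other gene annotated over it (chr17:56242988-56243098, plus strand), encodes miR-7b. It had 1753 counts (553 CPM) and 1536 counts (418 CPM), or 485 ± 95.0 CPM. Mir7-1 lies in an intron of Hnrnpk, a gene of a widely expressed RNA-binding protein (chr13:58392779-58392886, minus strand), and had 926 and 1044 counts, 288 ± 5.37 CPM. Mir7-2, which lies outside other annotated genes (chr7:78888277-78888373, plus strand), had 1007 and 1018 counts, 297 ± 28.4 CPM. Mir7b exceeded both other loci in each library, while Mir7-1 and Mir7-2 changed order between the libraries. Reads of exactly miR-7a-5p are missing from Mir7-1 and Mir7-2, while miR-7b-5p occurs in the hairpin of Mir7b alone among those compared. This order therefore holds for reads at single positions only.

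The miR-129 genes and Mir488 were lower. Mir129-2 lies in an intron of the noncoding gene Mir670hg (chr2:94241364-94241453, minus strand) and had 404 counts (127 CPM) and 583 counts (159 CPM), or 143 ± 22.2 CPM. Mir129-1 lies in an exon of the noncoding gene Gm3294 (chr6:29022619-29022691, plus strand) and had 312 counts (98.4 CPM) and 401 counts (109 CPM), or 104 ± 7.67 CPM. Mir488, in an intron of Astn1 (chr1:158505625-158505733, plus strand), had 314 counts (99.0 CPM) and 387 counts (105 CPM), or 102 ± 4.53 CPM. Mir129-2 was above the other two in both libraries.

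In the order Mir132, Mir7b, Mir7-2, Mir7-1, Mir129-2, Mir129-1, Mir488, Mir212, the ranges of neighbours overlapped for Mir7-2 with Mir7-1 and for Mir129-1 with Mir488. The other neighbours did not overlap over the 2 libraries. No member had a count on the other strand, which allows a share of up to 0.0390% of the members' counts in replicate 1 and 0.0403% in replicate 2. That column includes the strand of Mir129b, a miRNA annotated opposite Mir129-2. Mir129b was not found by symbol among the genes of the count tables, where 1894 of 1973 identifiers could be given a symbol. Whether it had a count under another identifier was not checked.

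**Figure D2:**
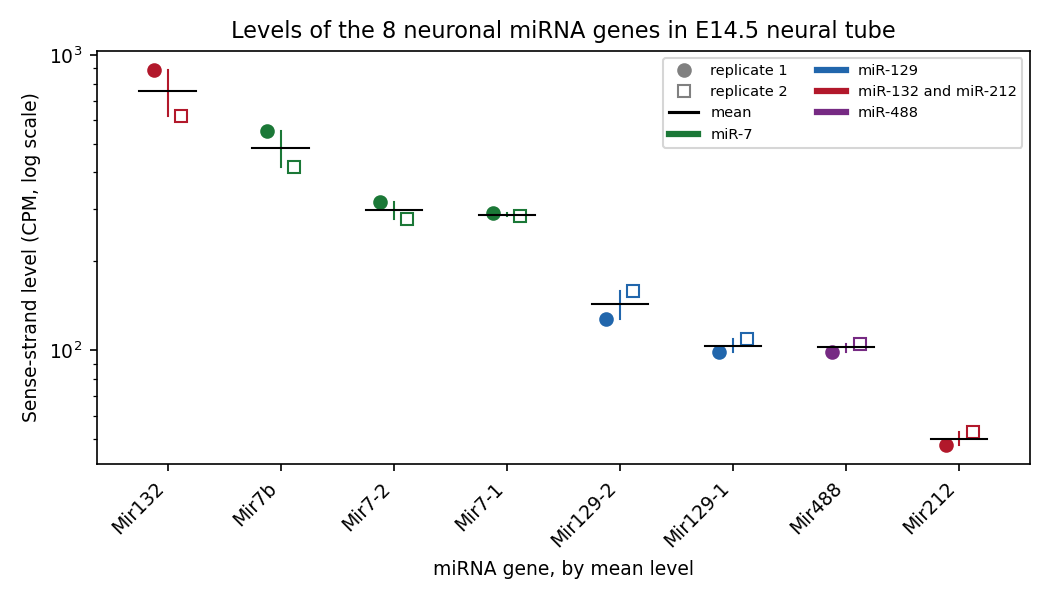
Sense-strand level in CPM on a log axis for each of the 8 genes, with replicate 1 as filled circles, replicate 2 as open squares and the mean as a black line. Mir132 is highest at a mean of 756 CPM and Mir212, from the same transcript, lowest at 50.2 CPM.

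The libraries of the different dams were then compared gene by gene over the 360 genes. Libraries were scaled with TMM (trimmed mean of M-values), and counts were tested with a two-sided exact binomial test with Benjamini-Hochberg adjustment, with a call at adjusted p below 0.05 and at least 2-fold. With 1 library per dam the comparison is one of libraries rather than of litters, and no replicate checks it. Of the 8 genes, 0 were called, while 10.3% of all genes tested were, 3.89% as higher in replicate 1 and 6.39% as higher in replicate 2. Without a minimum fold, 4 of the 8 had an adjusted p below 0.05, and so did 56.7% of all genes, so the members' share was near the background. All 4 were higher in replicate 1, a direction with a background of 29.2%. The number with an unadjusted p below 0.05 was also 4, against 59.2% of all genes tested. The members' median log2 ratio of replicate 1 over replicate 2 was 0.19, against -0.019 over all genes tested. Scaling by total counts lowered every ratio by 0.21, and the medians became -0.026 and -0.23.

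Mir132 differed most among the 8, at 1.67-fold higher in replicate 1 (log2 ratio 0.74, 95% interval 0.66 to 0.82, exact binomial test, adjusted p = 1.82e-73). It was 1.44-fold higher with scaling by total counts. Its absolute ratio exceeded that of 80.6% of the genes tested. Mir7b followed at 1.53-fold (log2 ratio 0.61, 95% interval 0.51 to 0.71, exact binomial test, adjusted p = 2.44e-33), and Mir7-2 and Mir7-1 had log2 ratios of 0.41 and 0.25. These 3 kept their direction with scaling by total counts, at 0.40, 0.20 and 0.038. With that scaling the exact binomial test gave Mir7-1 an adjusted p of 0.654, above the threshold. In edgeR's exact test with an assumed coefficient of variation of 0.2, 0 of the 8 had an adjusted p below 0.05 (Mir132 at 0.529, the lowest) and 0 an unadjusted one. That test called 21 of the 360 genes at adjusted p below 0.05 and at least 2-fold. Its share of all genes with an unadjusted p below 0.05 is not given here. The counts of 0 are therefore not read as a result about the members.

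The ratios of Mir488, Mir212, Mir129-1 and Mir129-2 were small, and their 95% intervals with TMM included 0. They were 0.12, 0.063, 0.062 and -0.10 with TMM, and -0.090, -0.15, -0.15 and -0.32 with scaling by total counts, so the first 3 changed sign. Mir129-2 had an adjusted p of 0.367 with TMM and 0.00132 with scaling by total counts (exact binomial test), and stayed under 2-fold in both.

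**Figure D3:**
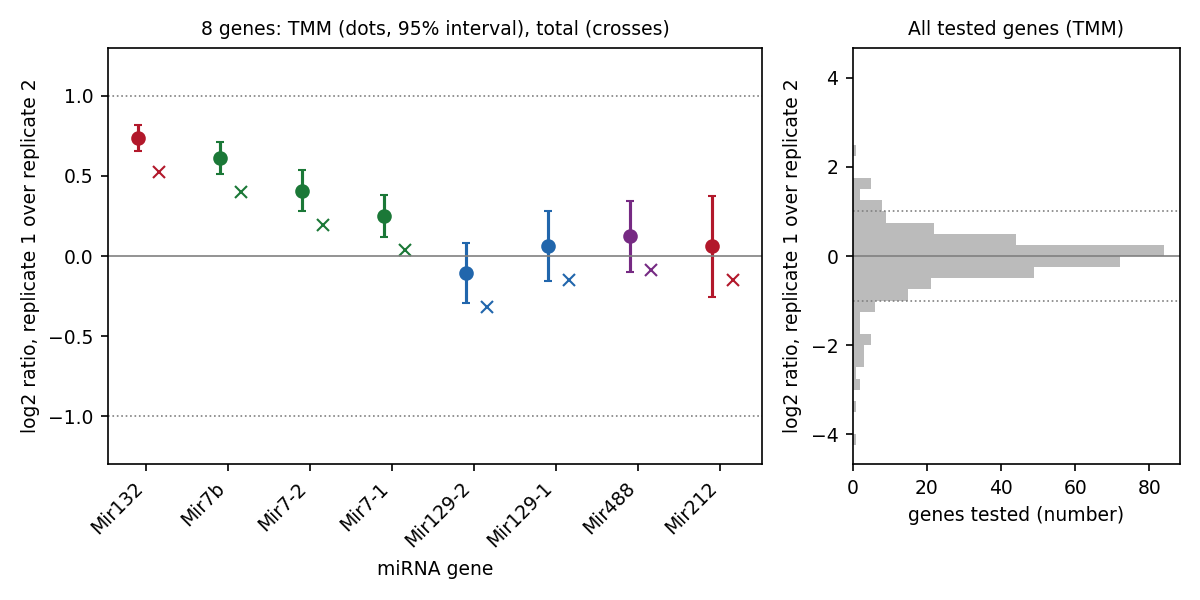
Left, log2 ratio of replicate 1 over replicate 2 for each gene with TMM scaling (dots, bars are exact 95% intervals for counting error) and with scaling by total counts (crosses). Right, a histogram of the TMM-scaled ratios of all 360 genes tested. The dotted lines mark 2-fold, and all 8 genes lie within them.

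Some markers of other cell types differed between the libraries as well. The 3 sensory miRNA genes Mir96, Mir182 and Mir183 had a sum of 2109 CPM in replicate 1 against 15050 CPM in replicate 2, and the 6 mesenchymal genes to 1197 and 4894 CPM. Endothelial Mir126a stood at 8443 and 17271 CPM. In the blood list, with sums of 219 and 345 CPM and 1 of 7 members, Mir142b, at 0 in both libraries, Mir223 was called higher in replicate 2 (log2 ratio -2.14) and Mir486 higher in replicate 1 (1.69), and the other 4 tested genes were not called. The muscle list had 45.4 and 53.1 CPM, with 2 of 5 members at 0, and its 1 tested gene, Mir206, had a log2 ratio of -0.0078. The neuronal comparison list summed to 15206 and 14310 CPM, and without Mir128-1 and Mir128-2 to 12708 and 13018 CPM. The part of these differences in the members' ratios was not tested.

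Ratios of counts within a family need no scaling between the libraries. The share of Mir132 in the reads of its locus was 94.9% in replicate 1 (exact 95% interval 94.1 to 95.7) and 92.1% in replicate 2 (91.0 to 93.2), and the intervals did not overlap. The odds of a read being Mir132 rather than Mir212 were 1.60 times as high in replicate 1 (exact 95% interval 1.28 to 2.00).

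The setting for this difference was taken from other neighbours, chosen after the values were seen. There were 57 pairs of adjacent miRNA genes at most 1000 bases apart on 1 strand with at least 10 counts each in both libraries, some sharing a gene. The log2 ratio of higher over lower gene differed between the libraries by a median of 0.35 over these pairs, and by 0.68 for Mir132 over Mir212. It differed by at least as much in 11 of the 57, the Mir132 and Mir212 pair included (19.3%). The level gap between Mir132 and Mir212 was 14.8-fold as a geometric mean over both libraries. It was likewise reached or exceeded in 18 of 57 pairs, itself included, and the median gap over all 57 was 4.96-fold. Reads at several positions can be missing from genes of the other pairs. The hairpins of Mir132 and Mir212 shared no window with another hairpin of the RefSeq table. The part of such reads in the gaps and shifts was not tested, so both comparisons hold for reads at single positions only. Other pairs with a larger shift included Mir221 with Mir222 and Mir23b with Mir27b, whose log2 ratios differed by -1.27 and 0.85.

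**Figure D4:**
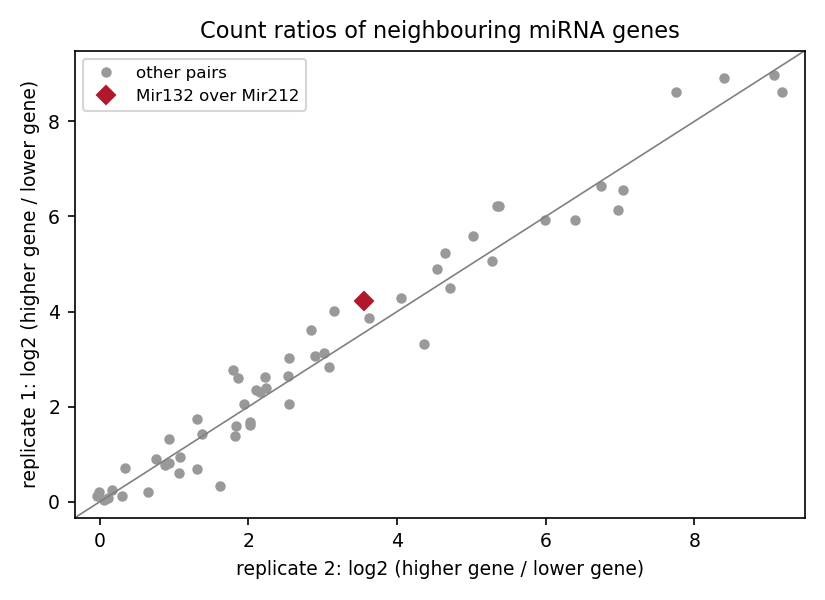
Log2 ratio of the counts of the higher over the lower gene in 57 pairs of adjacent miRNA genes, in replicate 2 (horizontal) and replicate 1 (vertical), with the line of equal ratios. The Mir132 and Mir212 pair (red diamond) lies above the line by 0.68, within the spread of the grey points.

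Among the miR-7 genes, Mir7b held 47.6% of the family's counts in replicate 1 (exact 95% interval 45.9 to 49.2) and 42.7% in replicate 2 (41.1 to 44.3). Mir7-1 held 25.1% (23.7 to 26.6) and 29.0% (27.5 to 30.5), and for both genes the intervals of the libraries did not overlap. The share of Mir7-2, 27.3% (25.9 to 28.8) and 28.3% (26.8 to 29.8), had overlapping intervals. The odds of Mir7-1 against Mir7b were 0.777 times as high in replicate 1 as in replicate 2 (exact 95% interval 0.694 to 0.871), while those of Mir7-1 against Mir7-2 gave 0.897 (0.790 to 1.02). The odds of Mir7-2 against Mir7b gave 0.867 (0.775 to 0.970). Both Mir7-1 and Mir7-2 were thus lower relative to Mir7b in replicate 1, while the difference between them lay within counting error. Reads of exactly miR-7a-5p are missing from Mir7-1 and Mir7-2. Among the hairpins compared, miR-7b-5p occurs in that of Mir7b alone. The rest of the genome and reads with mismatches were not checked. The shares and odds therefore hold for reads at single positions only, and that of Mir7b in the whole family is uncertain.

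For the miR-129 genes the shares of the libraries had overlapping intervals. Mir129-2 held 56.4% of their counts in replicate 1 (exact 95% interval 52.7 to 60.1) and 59.2% in replicate 2 (56.1 to 62.3). Reads of exactly miR-129-5p enter neither gene's share. The odds ratio of Mir129-1 against Mir129-2, replicate 1 over replicate 2, was 1.12 with an exact 95% interval of 0.919 to 1.37. The interval includes 1, so the observed shift could not be told from counting error. In all, 5 pairs of genes within families were compared in this way, with intervals not adjusted for their number.

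**Figure D5:**
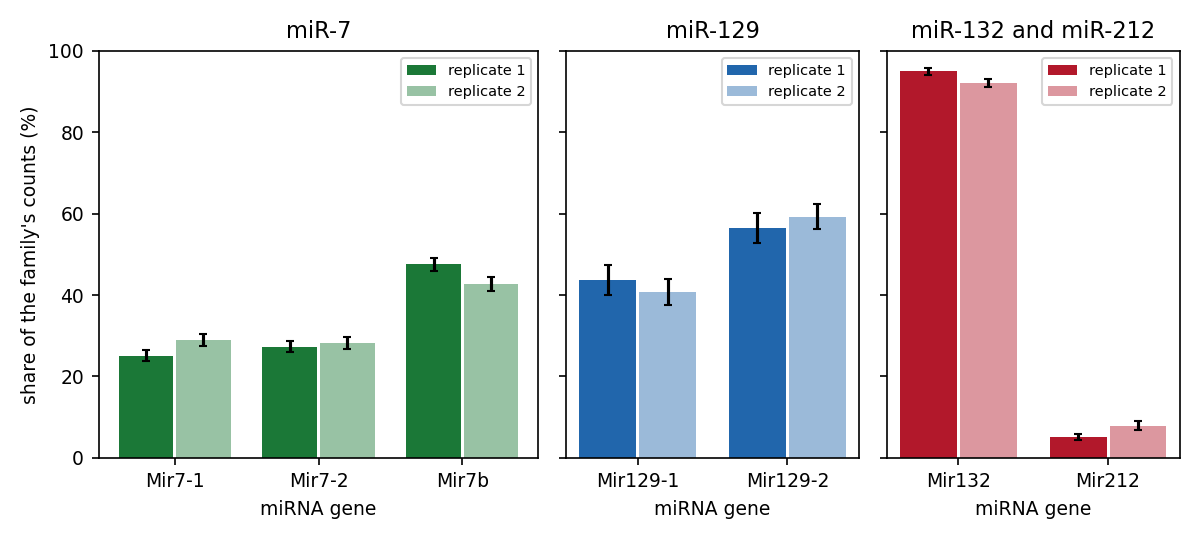
Share of each gene in its family's counts, in percent, for replicate 1 (dark) and replicate 2 (pale), with exact 95% binomial intervals as bars. Only reads at single positions are counted. Mir7b holds 47.6% and 42.7% of miR-7 counts and Mir132 94.9% and 92.1% of the counts of the Mir132 and Mir212 locus, while the miR-129 bars overlap within their intervals.

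Other neuronal miRNA genes give the scale of these levels. The comparison list named 14, of which 13 had a value and 11 were tested, and 2, Mir128-1 and Mir128-2, were called, both higher in replicate 1. The list's median log2 ratio was 0.25, or 0.042 with scaling by total counts. Mir137 alone stood at 9457 ± 193 CPM, above the sum of the 8 genes, 2226 ± 283 CPM. Mir128-1, Mir138-1 and Mir153 reached 1324 ± 604, 1112 ± 367 and 961 ± 0.202 CPM, each above Mir132 on average. The other 9 lay below Mir132, between 1.33 and 571 CPM, with the Mir124a genes and Mir9-2 lowest. Reads at several positions are missing from the levels of listed genes too, and their part was not tested. The order against Mir132 therefore holds for reads at single positions only. Of the 4 neural progenitor genes, led by Mir135b at 4762 ± 352 CPM, and the 3 oligodendrocyte genes, led by Mir219a-2 at 2232 ± 202 CPM, 0 were called. Of all genes tested 10.3% were called, so 0 among so few is near that share. Genes not called could still differ between the libraries, with log2 ratios of 0.36 for Mir135b and -0.65 for Mir338.

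For each member the nearest gene outside the 8 was taken by the distance of log2(CPM + 1) over both libraries, and some members lay nearer to each other. Mir132 was nearest to Mir770 (957 and 666 CPM), Mir7b to Mir9-3 (549 and 486 CPM), and both Mir7-1 and Mir7-2 to Mir485 (283 and 292 CPM). Mir129-1 and Mir488 were both nearest to Mir29c (96.1 and 101 CPM), Mir129-2 to Mir700 (131 and 175 CPM) and Mir212 to Mir216b (47.6 and 51.5 CPM). With 2 libraries this likeness is one of level alone.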

How the data were processed

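Each library had 1 deposited table of raw read counts by miRNA gene, with columns for either strand, the sense strand and the other strand. The counts derive, per the notes that accompany the deposited tables, from alignments to mm10 with annotation M4 (aligner and trimming not given in the sources used here). Rows that name no gene stayed out of library sizes and tests, and held 46.6% and 48.1% of all reads of replicates 1 and 2. Symbols and positions came from GENCODE M21 (GRCm38, the same assembly as mm10), which matched 1894 of 1973 identifiers, and sequences from the RefSeq table of GRCm38.p6.

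The sense counts were used. TMM factors (edgeR 4.0.16, R 4.3.3) were computed on genes with at least 10 counts in a library, log2 ratios had a prior count of 0.5, and binomial tests and exact 95% intervals came from scipy 1.17.1 (Python 3.11.15, pandas 2.3.3, numpy 2.4.6, matplotlib 3.10.9). The test leaves out the spread between litters, since 1 library per dam gives no residual degrees of freedom for edgeR's quasi-likelihood test. The limit of a count of 0 is that of 3 counts. The procedure was tried on simulated counts that held counting error only, which cannot check it under variation between libraries. Alternatives were scaling by total counts or DESeq2 1.42.0 size factors, other filters, either-strand counts, family sums, CPM of all reads and an assumed variation between libraries. The genes, lists and tests were chosen with earlier results of these data known. Named genes were the 8 members, up to 4 of the highest genes of each list, each member's nearest gene by level, and genes sharing a seed or an antisense locus. Mir142b, Mir486, Mir128-2, Mir124a-1, Mir124a-2, Mir124a-3, Mir9-2, Mir221, Mir222, Mir23b, Mir27b and Mir670 were named after their values were seen.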

Additional observations from a re-analysis of the deposited data

How the results depend on the processing

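Filters on low counts and the test with an assumed variation left the scaling, and so the members' ratios, as they were, and the members had no other-strand counts, so these alternatives say nothing about direction. With DESeq2 size factors 8 of 8 members had the same sign as with TMM. With scaling by total counts Mir129-1, Mir212 and Mir488 turned to -0.15, -0.15 and -0.090, and with miR-129 genes summed Mir129-1 took the family's -0.035. The count of called members was 0 under both other scalings and with the assumed variation. Over all genes the 37 calls were split into 14 higher in replicate 1 and 23 higher in replicate 2. The split was 8 and 35 with scaling by total counts, and 5 and 15 (20 in all) with a filter of 100 counts, which tested 282 genes. With an assumed coefficient of variation of 0.2 it was 4 and 17, 21 in all. The summed level of the 8 genes, 2226 CPM, was 1173 CPM per 1000000 of all reads, because the denominator then holds reads of no gene. Without one replicate it ranged from 2026 to 2426 CPM. A ratio could not be computed without a replicate. No paired analysis was possible because there was only 1 group. Depth limits Mir212 most, with 151 and 194 counts.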

Other observations

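Mir670 lies in the same noncoding gene, Mir670hg, as Mir129-2 and on the same strand (chr2:94261300-94261399). It had 102 and 127 counts, or 33.4 ± 1.72 CPM, below Mir129-2 at 143 ± 22.2 CPM in both libraries. Its log2 ratio of replicate 1 over replicate 2 was 0.11 (exact 95% interval -0.28 to 0.49), and that of Mir129-2 was -0.10 (-0.29 to 0.08), and both intervals include 0.

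miR-7 is also known from endocrine cells. The 4 miRNA genes of the pancreas and endocrine list, Mir217, Mir375, Mir216b and Mir216a, were all detected and had sums of 312 and 330 CPM in replicates 1 and 2, against 1162 and 980 CPM for the 3 miR-7 genes. Mir375, known from endocrine cells, had 80.4 and 65.4 CPM, and 0 of the 4 genes were called, against 10.3% of all genes tested. Which cells of the tissue the miR-7 reads came from was not tested.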
